A study of Mus musculus with 6 samples.

Results

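Expression of 10 genes for metalloproteinases and their inhibitors was followed in AMs, the macrophages of the lung airspaces: the matrix metalloproteinases Mmp8, Mmp9, Mmp12, Mmp14 and Mmp19, the tissue inhibitors Timp1, Timp2 and Timp3, and the membrane proteases Adam8 and Adam17. They were picked by gene name with no threshold on their values, though with earlier results of these data known. All 10 were among the 24341 genes of the deposited table. AMs came from the BAL of female C57BL/6 mice aged 6 to 10 weeks, with no treatment of the mice named, of genotype CD44+/+ or CD44-/-, with 3 samples per genotype. Each sample was RNA of unsorted BAL cells pooled from a few mice after lysis of red blood cells, in pools that did not all hold the same number of mice, so the spread between samples is that between pools. The CD44-/- mice lack CD44 in other cells as well as in AMs. Values are FPKM, the fragments of a transcript per kilobase of its length, scaled to the number of fragments mapped.

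Matrix metalloproteinases are zinc enzymes that cut collagens, elastin and other matrix proteins, and most are secreted as inactive precursors. TIMPs bind the active site of these enzymes and block them. ADAM proteases sit in the membrane and release the outer parts of other membrane proteins, among them tumour necrosis factor, the classical substrate of ADAM17. AMs are known as a source of the elastase MMP12 in the lung, and CD44 is itself known to be shed by MMP14 and ADAM proteases and to hold MMP9 at the cell surface.

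The Cd44 transcript was at 540, 535 and 527 FPKM in the CD44+/+ samples and at 54.7, 54.5 and 51.4 FPKM in the CD44-/- samples, lower in the CD44-/- samples as labelled, with about 0.1 of the level left. The AM genes Itgax and Siglecf lay at 435 FPKM or more and at 243 FPKM or more in every sample, and 11 AM genes with Lyz2, Chil3 and Cd68 at their head summed to 34100 to 38300 FPKM in CD44+/+ and 36500 to 40600 FPKM in CD44-/- samples. Genes of the neutrophil list were present at a lower level, led by Ltf (15.2 to 87.3 FPKM), S100a8 and Csf3r. The sum of 10 of them went from 62.3 to 167 FPKM in CD44+/+ and from 65.3 to 86.5 FPKM in CD44-/- samples. Camp, Ngp, Elane and Mpo, granule genes transcribed mainly in neutrophil precursors, were listed at 0 in all samples. Which cells gave the Ltf transcript was not tested. Epithelial genes, led by the club cell genes Scgb1a1, Scgb3a2 and Scgb3a1, summed to 568 to 870 FPKM and 537 to 747 FPKM, and erythroid genes (Hba-a2, Hbb-bt, Alas2) to 2.12 to 17.3 FPKM and 2.89 to 56.5 FPKM. Monocyte genes (Ccr2, Plac8, Vcan) summed to 4.96 to 5.98 FPKM and 4.93 to 6.57 FPKM, and lymphocyte genes (Nkg7, Cd3d, Cd3e) to 0.56 to 1.28 FPKM and 0.434 to 0.922 FPKM. Within the epithelial list Sftpb, Sftpc and Epcam, named after their values were seen, had log2 differences of 1.24, 1.44 and 0.53 (adjusted p = 0.369, 0.591 and 0.521, limma), of which Sftpb was without overlap, while Scgb1a1 and Scgb3a2 had log2 differences of -0.35 and -0.39. None of these sums separated the genotypes, but each sum follows its few highest genes and says little of the others. In the AM list 4 of 11 genes were without overlap, 2 higher and 2 lower in CD44-/- samples, against 11.6% of all genes tested. None of the marker genes reported here had an adjusted p under 0.05 in limma with all 6 samples. An unadjusted p under 0.05 from limma was found for 1 of 11 AM, 2 of 6 tested neutrophil and 3 of 8 epithelial genes. The interstitial macrophage genes C1qa and C1qc also reached it, and 7.69% of all genes tested did. The number of genes that differed between genotypes was 12 of 10800 with all samples. It was 36 without CD44+/+ replicate 1, 22 without CD44-/- replicate 1 and 6 to 13 without any other single sample. In bulk samples fewer cells of a type and less RNA per cell cannot be told apart.

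The 10 genes covered a wide range of levels. Mmp19 had the highest mean over the 6 samples at 71.3 FPKM, followed by Adam17 at 67.7, Timp2 at 34.7 and Mmp8 at 27.5 FPKM. Mmp12 at 3.48 FPKM and Mmp14 at 1.78 FPKM formed a middle range, and Adam8 (0.748 FPKM), Timp1 (0.518), Mmp9 (0.486) and Timp3 (0.223) were low. Mmp9 and Timp3 lie under the limit of 0.5 FPKM set for the comparison of genotypes. Between neighbours in this order the ranges of the 6 samples were separate for Adam17 and Timp2 and for Mmp8 and Mmp12, and overlapped for all others. Mmp19 and Adam17 did not differ beyond their spread, with Mmp19 higher in 3 of 6 samples, whereas Timp2 exceeded Mmp8 within each of the 6 samples although their ranges overlapped.

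**Figure D1:**
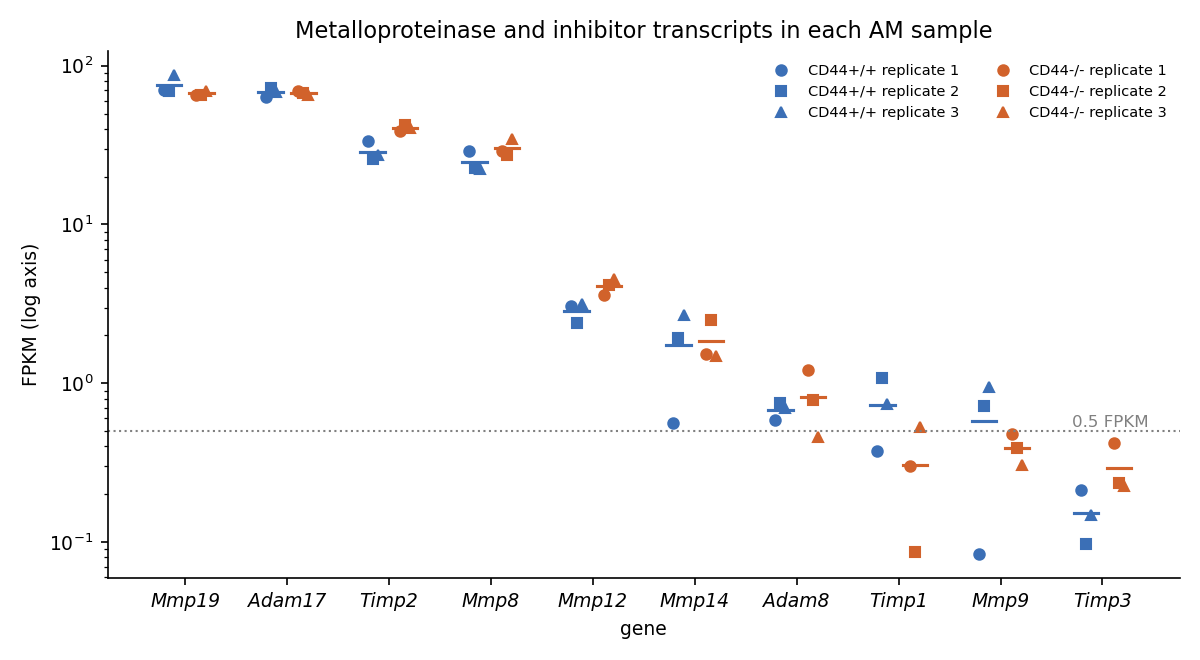
FPKM of the 10 genes on a log axis, ordered by mean level, in the CD44+/+ samples (blue) and CD44-/- samples (orange). Symbols mark the replicate number, horizontal bars the mean of 3 samples and the dotted line 0.5 FPKM. Timp2, Mmp12 and the low Timp3 are the genes in which every CD44-/- sample lies above every CD44+/+ sample.

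Within each family 1 or a few genes carried most of the transcript. Timp2 made up 95.6% to 99.3% of the summed FPKM of the 3 TIMP genes in every sample. Mmp19 made up 62.9% to 75.1% of the summed FPKM of the 5 MMP genes, and Mmp8 19.1% to 31.4%. Of the 18 other MMP genes in the table, Mmp25, a membrane-anchored MMP, was the only one with a mean of at least 0.5 FPKM (0.481 to 0.976 FPKM), and 5 were listed at 0 in all samples. Mmp15 (0.157 to 0.410 FPKM) and Mmp17 (0.0609 to 0.123 FPKM), both membrane-anchored, came next. The gelatinase gene Mmp2, the partner of MMP14 and TIMP2 in the activation of its precursor, was listed at 0 in 5 of the 6 samples and had 0.0187 FPKM in the other. Among the ADAM genes, Adam10 (69.4 to 78.6 FPKM) reached the level of Adam17, and Adam9 (55.5 to 58.1 FPKM) and Adam15 (30.9 to 39.0 FPKM) lay below the range of Adam17. The ratio of Adam10 to Adam17 was between 0.988 and 1.19 in all samples. Of the 19 genes of the secreted ADAMTS proteases, Adamts2 (3.65 to 5.33 FPKM) and Adamts10 (2.63 to 5.37 FPKM) passed 0.5 FPKM, and Adamts6 (0.279 to 0.552 FPKM) came next. Adamts2, which trims procollagen, was lower in every CD44-/- sample (3.65 to 4.57 FPKM) than in any CD44+/+ sample (4.69 to 5.33 FPKM), with an adjusted p of 0.658 from limma. The remaining inhibitors Timp4 and Reck stayed under 0.5 FPKM, with at most 0.310 and 0.0292 FPKM in any sample.

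**Figure D2:**
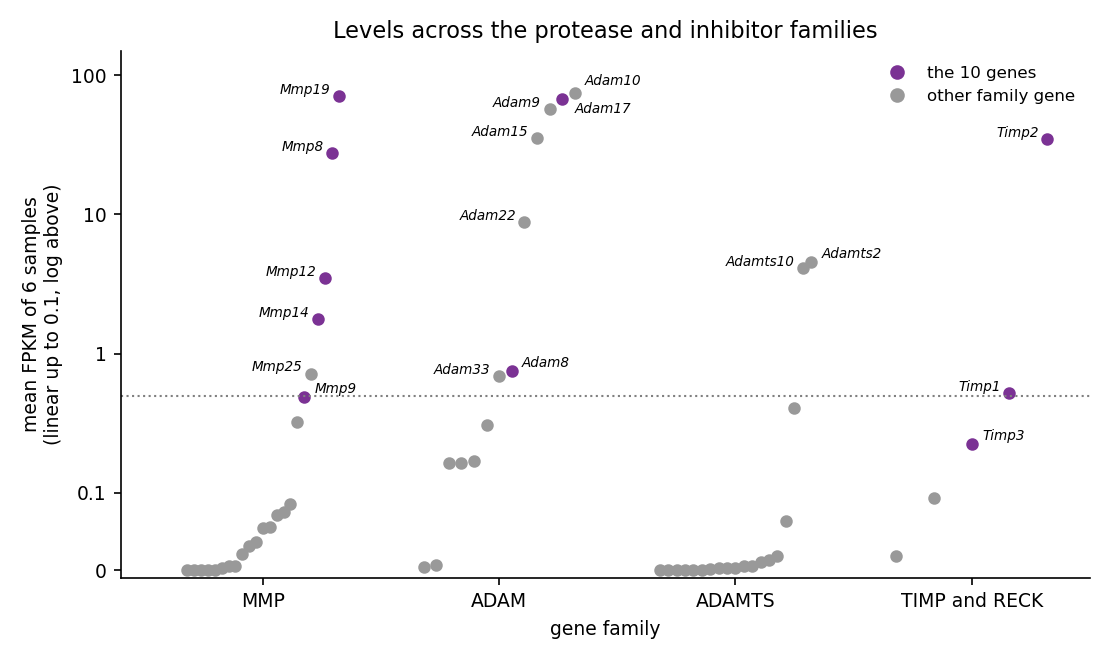
Mean FPKM over the 6 samples of the MMP, ADAM, ADAMTS and TIMP genes with Reck, on an axis that is linear up to 0.1 and logarithmic above. The 10 genes described here are purple, other family genes grey, and the dotted line is 0.5 FPKM. Most family genes lie near 0, and Mmp19, Mmp8, Timp2, Adam17, Adam10, Adam9 and Adam15 lie above 10 FPKM.

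Genotypes were compared on log2(FPKM + 0.1) with limma over the 10800 genes whose mean reached 0.5 FPKM, of which 12 (0.111%) had a Benjamini-Hochberg adjusted p under 0.05. Of the 10 genes 8 were tested, and none passed. Before adjustment 3 of the 8 had a p under 0.05, namely Timp2, Mmp12 and Mmp8, all higher in CD44-/- AMs. Over all genes tested 7.69% reached it, and 4.75% did so with a higher value in CD44-/- AMs. With the replicate number fitted as a block, Mmp19, lower in CD44-/- AMs, also had an unadjusted p under 0.05 from limma. Separate ranges in the genotypes were seen for 2 of the 8, Timp2 and Mmp12, against 11.6% of all genes tested in either direction and 6.75% with the higher values in CD44-/- AMs. The median log2 fold change, CD44-/- over CD44+/+, was 0.22 over the 8 genes and 0.01 over all genes tested. Each p from this fit is two-sided, and with 3 samples against 3 an exact permutation test of a single gene cannot give a p below 0.1.

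**Figure D3:**
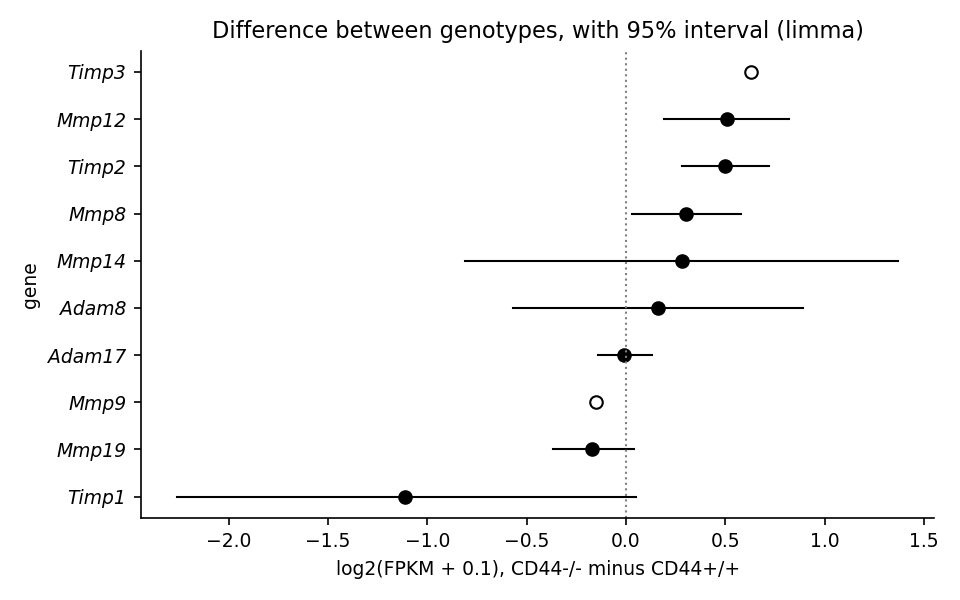
Difference between genotypes on log2(FPKM + 0.1), CD44-/- minus CD44+/+, for each of the 10 genes, with the 95% CI of limma for the 8 genes tested. Open circles are Mmp9 and Timp3, which were under 0.5 FPKM and not tested. Timp2 at 0.50, Mmp12 at 0.51 and Mmp8 at 0.30 have intervals above 0 before adjustment over all genes, and the intervals of the other 5 genes include 0.

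Timp2, the inhibitor that also takes part in activation of pro-MMP2 with MMP14, had 33.5, 25.7 and 27.3 FPKM in CD44+/+ AMs and 38.6, 42.5 and 40.5 FPKM in CD44-/- AMs. All CD44-/- samples were thus above all CD44+/+ samples, and CD44+/+ replicate 1 was the closest to them. CD44+/+ AMs averaged 28.8 ± 4.12 FPKM (SD, n = 3), and CD44-/- AMs were 40.6% higher at 40.5 ± 1.95 FPKM (SD, n = 3). The log2 difference, CD44-/- minus CD44+/+, came to 0.50 (standard error, SE, 0.10, 95% confidence interval, CI, 0.28 to 0.72), with an unadjusted p of 0.000675 and an adjusted p of 0.158 from limma. Without CD44+/+ replicate 1 the log2 fold change was 0.61 and the adjusted p from limma 0.0146, the only setting in which Timp2 passed, and over all settings the adjusted p went up to 0.621. Timp2 lies on chromosome 11 of mm10 from 118301061 to 118355411, on the minus strand, and Cep295nl shares bases with it on the same strand.

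Mmp12, the macrophage elastase, showed a difference of about the same size at a lower level. It had 3.06, 2.38 and 3.16 FPKM in CD44+/+ AMs and 3.61, 4.16 and 4.53 FPKM in CD44-/- AMs, without overlap. CD44+/+ AMs averaged 2.87 ± 0.424 FPKM (SD, n = 3), and CD44-/- AMs were 43.0% higher at 4.10 ± 0.463 FPKM (SD, n = 3). The log2 fold change of Mmp12 was 0.51 (SE 0.14, 95% CI 0.19 to 0.82), with an unadjusted p of 0.00607 and an adjusted p of 0.369 from limma, and it stayed between 0.38 and 0.59 whichever sample was left out. The ratio of Timp2 to Mmp12 lay between 8.64 and 10.9 in the 6 samples.

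The complement genes C1qa and C1qc, which mark interstitial macrophages of the lung, were also higher in every CD44-/- sample than in any CD44+/+ sample, with adjusted p of 0.294 and 0.471 from limma. C1qa had 2.08, 1.09 and 1.74 FPKM in CD44+/+ AMs and 3.26, 3.06 and 2.78 FPKM in CD44-/- AMs. C1qc had 1.79, 0.813 and 1.36 FPKM in CD44+/+ AMs and 1.87, 2.60 and 2.56 FPKM in CD44-/- AMs. Cx3cr1, Folr2 and Lyve1, also genes of these cells, overlapped between the genotypes, with Cx3cr1 between 0.368 and 0.539 FPKM and Folr2 and Lyve1 at 0.106 FPKM or less. Their part in the values of Timp2 and Mmp12 was not tested.

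Mmp8, a collagenase best known from neutrophil granules, was the second MMP gene by level. It had 29.0, 22.6 and 22.3 FPKM in CD44+/+ AMs and 28.9, 27.3 and 34.8 FPKM in CD44-/- AMs, and only CD44+/+ replicate 1 reached the CD44-/- samples. The log2 difference came to 0.30 (SE 0.12, 95% CI 0.03 to 0.58), with an unadjusted p of 0.0355 and an adjusted p of 0.598 from limma. The log2 difference of Mmp8 was 0.42 at its highest and 0.20 at its lowest with single samples left out, the lowest without CD44-/- replicate 3, where the unadjusted p from limma was 0.143. That p was also above 0.05 without CD44+/+ replicate 2 (0.117) or replicate 3 (0.125), without the filter (0.0585) and without the intensity trend (0.0677). The level of Mmp8 in CD44+/+ replicate 1, where the neutrophil genes S100a8 (17.2 FPKM) and S100a9 (0.493 FPKM) were at their lowest, was the highest of the CD44+/+ samples. The other neutrophil genes above 0 did not all go one way in that sample. Ltf at 28.7 FPKM and Retnlg at 0.128 FPKM were the lowest of the CD44+/+ samples, as was the sum of the list at 62.3 FPKM, whereas Cxcr2 at 3.97 FPKM was the highest of them and Csf3r at 11.8 FPKM lay within 9.32 to 11.9 FPKM. Between the genotypes, Csf3r was without overlap and higher in CD44-/- AMs. Its log2 difference was 0.33 (unadjusted p = 0.0176, adjusted p = 0.499, limma), close to that of Mmp8. Cxcr2, with overlap, was at 0.32 (unadjusted p = 0.0761, adjusted p = 0.708, limma). Ltf went the other way at -0.99 (unadjusted p = 0.0389, adjusted p = 0.619, limma). So did S100a8 at -0.08, S100a9 at -1.06 and Retnlg at -1.3. Retnlg, Cxcr2 and S100a9 were named after their values were seen. The part of neutrophil RNA in the Mmp8 values was not tested.

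Mmp8 and Mmp12 lie in a cluster of 10 MMP genes on chromosome 9 of mm10, which spans 427 kb from 7272514 to 7699416 in the deposited table. Mmp12 is at 7347374 to 7360461 and Mmp8, 198 kb further along, at 7558429 to 7568486. The other 8 genes of the cluster, among them the stromelysin genes Mmp3 and Mmp10, the collagenase gene Mmp13 and the interstitial collagenase genes Mmp1a and Mmp1b, had at most 0.145 FPKM in any sample. Expression in this cluster was thus detected well above 0 only for Mmp8 and Mmp12, whose ratio was between 6.56 and 9.50 in the 6 samples.

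The 250 bases before the start sites of Mmp12, Mmp8 and Timp2 are shown because Mmp12 and Timp2 were the tested genes without overlap between genotypes, and Mmp8 is the other expressed gene of the cluster. They are from the RefSeq promoter table of GRCm38.p6 (mm10), read 5′ to 3′ on the strand of the gene, and the base after the last one is the first of the transcript. Capitals mark matches to the AP-1 motif TGANTCA, which is classical for MMP promoters, the TATA motif TATAAA or the GC box GGGCGG, searched on both strands, with no overlap among the matches shown. Mmp12 is at chr9:7347124-7347373 (plus strand), Mmp8 at chr9:7558179-7558428 (plus strand) and Timp2 at chr11:118355412-118355661 (minus strand).
Mmp12: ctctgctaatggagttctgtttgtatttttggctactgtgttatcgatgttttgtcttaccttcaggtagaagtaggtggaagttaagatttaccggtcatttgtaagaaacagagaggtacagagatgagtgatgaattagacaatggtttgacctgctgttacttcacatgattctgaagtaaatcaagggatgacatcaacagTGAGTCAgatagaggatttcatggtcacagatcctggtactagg
Mmp8: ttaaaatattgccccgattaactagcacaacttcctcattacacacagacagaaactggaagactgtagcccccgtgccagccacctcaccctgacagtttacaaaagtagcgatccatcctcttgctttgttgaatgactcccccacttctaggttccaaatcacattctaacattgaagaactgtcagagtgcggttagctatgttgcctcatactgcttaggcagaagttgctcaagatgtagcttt
Timp2: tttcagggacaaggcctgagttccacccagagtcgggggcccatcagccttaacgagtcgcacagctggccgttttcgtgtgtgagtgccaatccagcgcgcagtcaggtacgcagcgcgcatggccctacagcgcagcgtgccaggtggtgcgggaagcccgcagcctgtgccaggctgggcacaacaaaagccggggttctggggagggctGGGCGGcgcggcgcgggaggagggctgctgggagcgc

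The Mmp12 window held 1 AP-1 match, 44 bases before the start site, and no GC box. The Timp2 window held 1 GC box, 37 bases before the start site, and no AP-1 match, and the Mmp8 window held none of the 3 motifs. The windows also differed in base composition, with 39.6% G and C for Mmp12, 44.8% for Mmp8 and 68.0% for Timp2. Of all 32851 promoters in the table, 6.75% held the AP-1 motif, 12.4% the TATA motif and 32.7% the GC box in the same 250 bases. A window was found for 8 of the 10 genes, not for Mmp9 and Mmp19, and Mmp12 was the only one of these 8 with an AP-1 match. Adam17, Adam8, Mmp14, Timp1 and Timp3 each held at least 1 GC box, and none of the 8 held the TATA motif. These matches describe letters in the window and not binding of a factor.

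Mmp19, an MMP that is widely expressed and has a broad range of substrates, had 69.9, 69.0 and 87.8 FPKM in CD44+/+ AMs and 65.4, 65.8 and 69.6 FPKM in CD44-/- AMs. CD44+/+ replicate 3 was above all other samples, and the remaining 5 samples lay within 65.4 to 69.9 FPKM. The log2 difference came to -0.17 (SE 0.09, 95% CI -0.37 to 0.04, adjusted p = 0.765, limma), and -0.05 without CD44+/+ replicate 3. Its unadjusted p from limma was 0.1, and 0.0366 with the replicate number fitted as a block (adjusted p = 0.469). Mmp19 lies on chromosome 10 of mm10 from 128790910 to 128804370. On the opposite strand Tmem198b (4.02 to 5.34 FPKM) shares bases with Mmp19 in the GENCODE annotation. The library kit keeps the strand, but whether the values were computed with strand is not given in the sources used here.

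Mmp14, the membrane-anchored activator of pro-MMP2, had 0.565, 1.93 and 2.69 FPKM in CD44+/+ AMs and 1.53, 2.51 and 1.48 FPKM in CD44-/- AMs. CD44+/+ replicate 1 was below the other 5 samples, and the genotypes overlapped. Its log2 difference came to 0.28 (SE 0.48, 95% CI -0.81 to 1.37, adjusted p = 0.971, limma) and turned to -0.33 without CD44+/+ replicate 1. The interval includes differences of more than 1 on the log2 scale. Mmp14 lies on chromosome 14 of mm10 from 54431604 to 54441258.

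Mmp9, the gelatinase of neutrophil granules and activated macrophages, was likewise lowest in CD44+/+ replicate 1. It had 0.0842, 0.714 and 0.944 FPKM in CD44+/+ AMs and 0.478, 0.393 and 0.304 FPKM in CD44-/- AMs, so that the CD44-/- samples lay between the extremes of the CD44+/+ samples. The difference of the mean log2 values was -0.15 (exact two-sided permutation test, p = 1.0), and it went from -0.92 without CD44+/+ replicate 1 to 0.33 without CD44+/+ replicate 3, so neither its size nor its sign was stable. S100a9, a calcium-binding protein gene of neutrophils, went from 0.493 FPKM in CD44+/+ replicate 1 to 18.9 and 15.8 FPKM in replicates 2 and 3, and was at 1.80, 4.20 and 2.31 FPKM in the CD44-/- samples. Lcn2, whose protein binds MMP9 in neutrophils, was at 0.235, 1.46 and 1.62 FPKM in CD44+/+ AMs and at 0.555, 1.27 and 0.871 FPKM in CD44-/- AMs. In Mmp9, Mmp14, S100a9 and Lcn2 alike CD44+/+ replicate 1 had the lowest of the 6 values, and S100a9 and Lcn2 were named after their values were seen. The log2 difference of S100a9 was -1.06 (adjusted p = 0.944, limma), and it was -2.69 with an adjusted p of 0.0206 from limma without CD44+/+ replicate 1 and -0.18 without CD44+/+ replicate 2. The part of S100a9 and Lcn2 in the spread of Mmp9 and Mmp14 was not tested. Mmp9 is on chromosome 2 of mm10 from 164948219 to 164955849, the chromosome that also holds Cd44 (102811142 to 102901665).

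**Figure D4:**
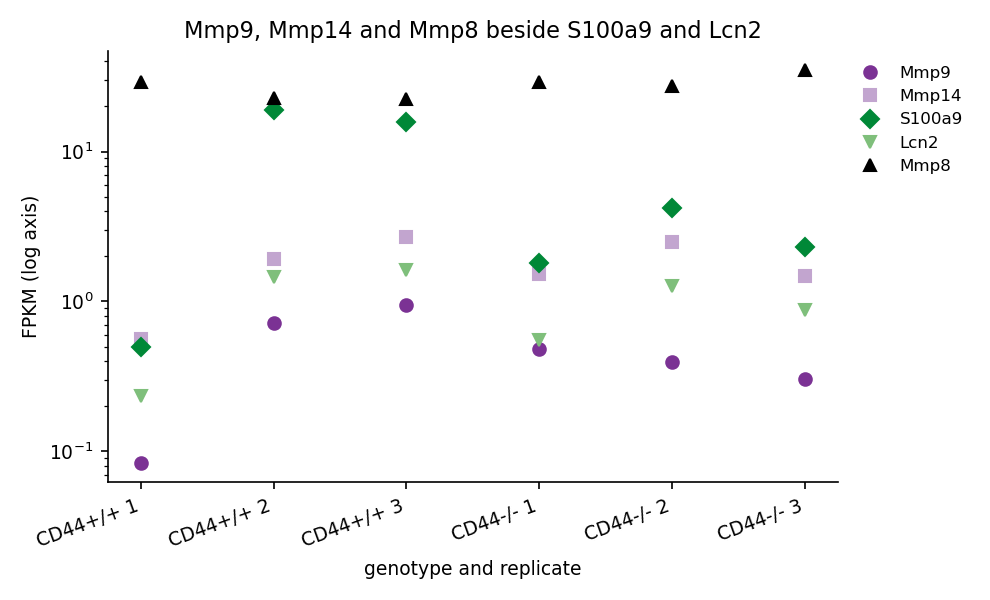
FPKM on a log axis of Mmp9, Mmp14 and Mmp8 with the neutrophil-related genes S100a9 and Lcn2 in each of the 6 samples, by genotype and replicate. Mmp9, Mmp14, S100a9 and Lcn2 are lowest in CD44+/+ replicate 1, where Mmp8 is at 29.0 FPKM.

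Timp1, the inducible inhibitor, was low and variable. It had 0.372, 1.08 and 0.738 FPKM in CD44+/+ AMs and 0.301, 0.0865 and 0.527 FPKM in CD44-/- AMs, with overlap. The log2 difference came to -1.11 (SE 0.50, 95% CI -2.26 to 0.05, adjusted p = 0.673, limma), and it lay from -1.50 to -0.63 whichever sample was left out and at -0.40 with a pseudocount of 1. Timp1, on chromosome X of mm10 from 20870166 to 20874735 in the GENCODE annotation, lies within Syn1, a synapsin gene on the opposite strand that had 15.2 to 17.1 FPKM, and the deposited table gives both as part of 1 locus on chromosome X from 20848543 to 20920918. The part of Syn1 reads in the Timp1 values was not tested.

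Timp3, the inhibitor that binds to the matrix and also blocks ADAM17, had 0.212, 0.0975 and 0.149 FPKM in CD44+/+ AMs and 0.419, 0.234 and 0.226 FPKM in CD44-/- AMs. The CD44-/- values all exceeded the CD44+/+ values, at the nearest by 0.226 against 0.212 FPKM (exact two-sided permutation test, p = 0.1, the smallest possible). The difference of the mean log2 values was 0.63, and 0.16 with a pseudocount of 1. TIMP3 is known as a product of fibroblasts, and the summed FPKM of 6 fibroblast genes was 0.0235 to 0.216 in CD44+/+ AMs and 0.115 to 0.276 in CD44-/- AMs, led by Dcn, Col1a1 and Col3a1, with Lum listed at 0 in all samples. Timp3, on chromosome 10 of mm10 from 86300372 to 86349506 in the GENCODE annotation, lies within Syn3 on the opposite strand, which had at most 0.0265 FPKM.

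Adam17, the tumour necrosis factor converting enzyme, was the most even of the 10 genes. It had 63.5, 72.1 and 68.1 FPKM in CD44+/+ AMs and 69.7, 67.3 and 65.4 FPKM in CD44-/- AMs. The log2 difference came to -0.01 (SE 0.06, adjusted p = 0.989, limma), and its 95% CI of -0.14 to 0.13 bounds the difference on the log2 scale. Iah1, on the opposite strand at 43.7 to 50.4 FPKM, shares bases with Adam17. Adam8, a protease of leukocytes, had 0.584, 0.747 and 0.702 FPKM in CD44+/+ AMs and 1.22, 0.781 and 0.456 FPKM in CD44-/- AMs, so that the CD44-/- samples included both the highest and the lowest value. Its log2 difference came to 0.16 (SE 0.32, 95% CI -0.57 to 0.89, adjusted p = 0.972, limma) and -0.15 without CD44-/- replicate 1. In mm10 Adam17 lies on chromosome 12 from 21316392 to 21373632 and Adam8 on chromosome 7 from 139978932 to 139992562.

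**Figure D5:**
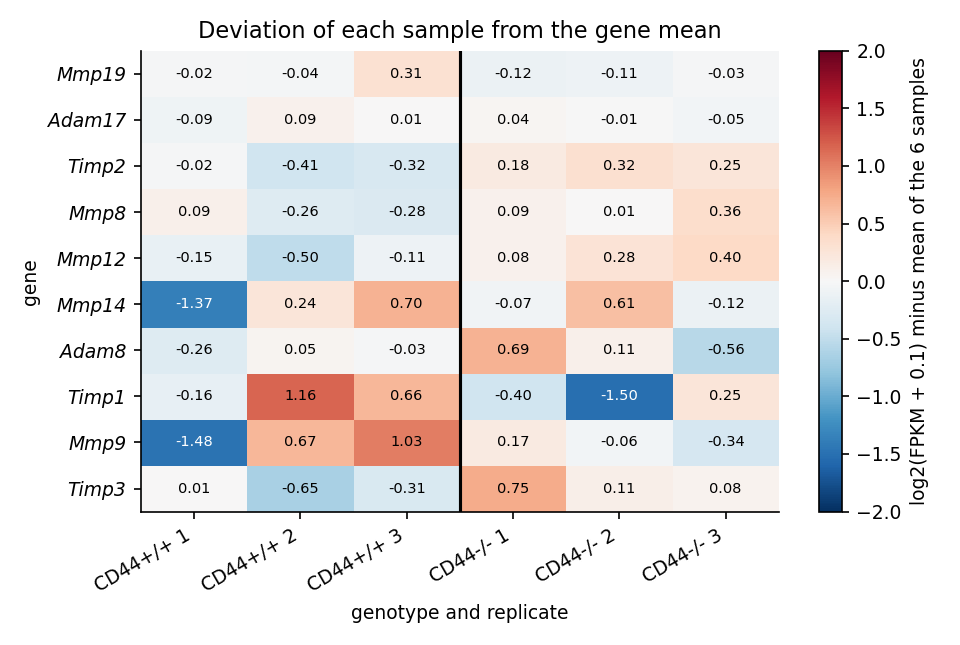
Log2(FPKM + 0.1) of each gene in each sample minus the mean of that gene over the 6 samples, with genes ordered by level and the vertical line between the genotypes. Timp2 and Mmp12 are below their mean in all CD44+/+ samples and above it in all CD44-/- samples, and CD44+/+ replicate 1 has the lowest values of Mmp14 (-1.37) and Mmp9 (-1.48).

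Summed over the genes of each family, MMP transcripts came to 96.6 to 117 FPKM in CD44+/+ AMs and 99.9 to 111 FPKM in CD44-/- AMs, with overlap. TIMP transcripts came to 34.1, 26.9 and 28.2 FPKM and to 39.3, 42.8 and 41.3 FPKM, without overlap, and Timp2 made up nearly all of these sums. The ratio of the MMP sum to the TIMP sum was 3.01, 3.60 and 4.15 in CD44+/+ AMs and 2.54, 2.34 and 2.68 in CD44-/- AMs. As the MMP sums overlapped, these ratios show the Timp2 difference again (adjusted p = 0.158, limma) and are no separate result. These are ratios of transcripts and say nothing of the active enzymes.

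Around the 10 genes, 6 lists of related genes held 86 genes, all in the table, and 33 of them were tested. None of the 33 had an adjusted p under 0.05 in limma, and 6 had an unadjusted p under 0.05, with 3 higher and 3 lower in CD44-/- AMs. Separate ranges were seen for 5 of the 33, 3 higher and 2 lower, against 11.6% of all genes tested, and a p under 0.05 before adjustment in 7.69% of them. The median log2 fold change was 0.05. By list, the numbers tested were 1 of 18 other MMP genes, 5 of 11 other ADAM genes, 2 of 19 ADAMTS genes, 0 of 2 inhibitors, 13 of 18 activators and partners, and 12 of 18 genes of shed proteins. None of the tested genes combined a lack of overlap with an absolute log2 fold change of 0.5 or more.

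Adam15 was the other protease gene with an unadjusted p under 0.05. It had 39.0, 36.3 and 38.0 FPKM in CD44+/+ AMs and 30.9, 34.2 and 34.7 FPKM in CD44-/- AMs, without overlap, with a log2 difference of -0.18 (SE 0.06, adjusted p = 0.499, limma). Adam10, the main partner of Adam17 in shedding, had a log2 difference of -0.04 and Adam9 of -0.02, both with overlap.

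Activators and partners were led by Plaur, the urokinase receptor, Bsg, an inducer of MMPs, and Furin, which removes the pro-domain of MMP14 and ADAM17. Plaur had 230.0, 225 and 220.0 FPKM in CD44+/+ AMs and 267, 234 and 246 FPKM in CD44-/- AMs, without overlap, with a log2 difference of 0.14 (adjusted p = 0.593, limma). Bsg and Furin had log2 fold changes of 0.02 and 0.03, with overlap. Rhbdf1, Rhbdf2 and Frmd8, whose proteins act in the transport of ADAM17 to the cell surface, were named after their values were seen. Rhbdf1 had 2.22, 2.01 and 1.32 FPKM in CD44+/+ AMs and 1.52, 0.921 and 1.18 FPKM in CD44-/- AMs, with overlap, a log2 difference of -0.57 and an unadjusted p of 0.0433 (adjusted p = 0.636, limma). Rhbdf2 and Frmd8 had 18.1 to 22.2 FPKM and 29.6 to 33.2 FPKM over all samples, with log2 differences of 0.07 and 0.08.

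Among the shed proteins, those with the highest transcript levels were the tumour necrosis factor receptor Tnfrsf1b (136 to 161 FPKM), the apoptotic cell receptor Mertk (119 to 140.0 FPKM) and the M-CSF receptor Csf1r (117 to 140.0 FPKM). Mertk had a log2 difference of 0.14 (adjusted p = 0.624, limma), with overlap, and Csf1r one of -0.11. Tnf, the substrate for which ADAM17 is named, had 4.16, 12.0 and 8.20 FPKM in CD44+/+ AMs and 3.48, 4.93 and 4.42 FPKM in CD44-/- AMs. The genotypes overlapped in Tnf only through CD44+/+ replicate 1, and the log2 difference came to -0.80 (SE 0.33, adjusted p = 0.616, limma). It was -1.21 without CD44+/+ replicate 1 (adjusted p = 0.0672, limma) and -0.46 without CD44+/+ replicate 2 (adjusted p = 1.0, limma). Trem2, a lipid receptor of macrophages, and Tnfrsf1a were without overlap and higher in CD44-/- AMs, with log2 differences of 0.16 (unadjusted p = 0.034, adjusted p = 0.592, limma) and 0.05 (adjusted p = 0.924, limma). Tnf, Trem2 and Tnfrsf1a were named after their values were seen.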

How the data were processed

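RNA of 3 CD44+/+ and 3 CD44-/- samples was sequenced by the authors with paired-end reads from a stranded mRNA kit, aligned to mm10 with STAR and summarised with Cufflinks and Cuffdiff. The authors deposited FPKM values for 24341 genes; strand setting and annotation are not given in the sources used here. The authors' group values and Cuffdiff fold changes, p-values and q-values were not used. The table has 2 name columns in different row orders (0 rows match): values were read by the first, under which Cd44 follows the genotype, and positions by the second, counted from 1. A gene without a value in 1 sample was left out.

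The 10 genes and all lists were chosen with earlier results of these data known. In R 4.3.3, limma 3.58.1 (lmFit, eBayes with an intensity trend, two-sided, Benjamini-Hochberg adjustment over all genes tested) was run on log2(FPKM + 0.1) for the 10800 genes whose mean reached 0.5 FPKM, and was tested on simulated data. Single genes were compared by exact permutation tests (scipy 1.17.1). Named genes are the 10 genes, those of the lists with an adjusted p under 0.05 or among the 3 with the highest mean, those of the related lists without overlap and with an absolute log2 fold change of at least 0.5, and Cd44. Others were named after their values were seen, among them Mmp2, the marker genes and the genes of the chromosome 9 cluster. Marker lists covered AMs, neutrophils, monocytes, interstitial macrophages, fibroblasts, epithelium, erythroid cells and lymphocytes. Some genes of the interstitial macrophage list, and its sums and counts, are not reported here.

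Absolute depth is unknown. From the steps between values under 0.05 FPKM, relative depth was 0.812 to 1.05 of that of CD44+/+ replicate 1, and sums of FPKM were 487901 to 504182. Deviations from the group means of same-numbered samples correlated at 0.212, 0.132 and 0.211 for replicates 1, 2 and 3 across 10800 genes, so the replicate number was also fitted as a block. Alternatives were the replicate block, robust eBayes, eBayes without trend, quantile normalization, median-ratio scaling, pseudocounts of 1 and 0.01, no filter, a minimum mean of 1 FPKM, and leaving out each sample.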

Additional observations from a re-analysis of the deposited data

How the results depend on the processing

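Direction was the same as reported in 132 of 138 recomputed values of the 10 genes. The filters, eBayes options and replicate block do not alter a log2 difference, so in those values it could not turn. Direction turned in 6 values, all with a single sample left out. It turned for Adam17 (0.04 without CD44+/+ replicate 2, 0.01 without CD44-/- replicate 3; over samples left out -0.05 to 0.04), Adam8 (-0.15 without CD44-/- replicate 1, up to 0.48), Mmp14 (-0.33 without CD44+/+ replicate 1, up to 0.70) and Mmp9 (0.15 without CD44+/+ replicate 2 and 0.33 without CD44+/+ replicate 3, down to -0.92 without CD44+/+ replicate 1). The number of the 10 genes with an adjusted p under 0.05 was 0, except 1 (Timp2) without CD44+/+ replicate 1, and 0 to 1 over samples left out. The number of all genes that passed was 12, 7 without a filter, 9 with the replicate block, and 6 to 36 with single samples left out. The block changed no call of the 10 genes. None of the related genes passed in any setting. The tested members of the 10 without overlap numbered 2, and 2 to 5 with samples left out (4 of 8 without CD44+/+ replicate 1, where 30.3% of all genes tested were without overlap, and 5 of 8 without CD44-/- replicate 3, where 19.8% were). Timp2 and Mmp12 were among them each time, but leaving out a sample cannot make separate ranges overlap. With samples left out the number could thus not fall below 2. Of all genes with an unadjusted p under 0.05, 61.7% were higher in CD44-/- AMs, against 53.2% after median-ratio scaling and 50.5% after quantile normalization. The causes of these shifts were not tested. Spread at low FPKM limits what can be seen for Mmp9, Timp1, Timp3 and Adam8.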
